A study of Mus musculus with 15 samples.

Results

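Chromatin at 10 genes for transcription factors of the T lineage (Tcf7, Lef1, Gata3, Bcl11b, Runx1, Runx3, Tox, Ets1, Ikzf1 and Tcf12) was read from interval lists of EL4 cells, an established mouse T lymphocyte lymphoma line of strain C57BL/6N for which the labels name no treatment. The genes were chosen by name, as 10 of the 21631 protein-coding genes that RefSeq places on chromosomes 1 to 19 and X of GRCm38, and every interval was taken that touches the gene span or the 50 kb on either side. ChIP-seq lists were used for 5 histone marks (H3K4me3, H3K9ac, H3K27ac, H3K36me2 and H3K27me3), together with lists of open sites from ATAC-seq, which cuts accessible DNA with a transposase, with 2 replicates each and 12 lists in all. The study, which measured how fast modified histones take up a metabolic label, describes the replicates behind its peak lists as technical, so the spread between them is that of the assay and not of separate cultures. All lists come from the same line under the same condition, so no test between conditions was made. Values are printed as replicate 1 and replicate 2 or as mean ± SD (n = 2).

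T cell progenitors acquire their identity through a small network of DNA-binding proteins. TCF-1, encoded by Tcf7, and GATA3 act early downstream of Notch, Bcl11b closes the path to other blood lineages, Runx proteins with their partner CBFβ and the E proteins, to which HEB (Tcf12) belongs, work at many T cell enhancers, and Ikaros (Ikzf1) and ETS1 are used more widely in lymphocytes. H3K4me3 marks gene starts, H3K9ac and H3K27ac mark active starts and enhancers, H3K36me2 spreads over transcribed and intergenic euchromatin, and H3K27me3 is laid down by Polycomb repressive complexes. Wide H3K4me3 intervals and long runs of H3K27ac are known for genes that define a cell type.

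The lists fitted the label of the cells. H3K4me3 lay at the start of 8 of 8 T cell markers (Cd3e, Cd3d, Cd3g, Cd247, Lck, Thy1, Cd2 and Ptprc) in both replicates, and of 0 of 4 B cell, 0 of 4 myeloid and 0 of 4 erythroid markers. Within the 10 windows, the sequence shared by the replicates, divided by the sequence called in either, was 0.891 for H3K4me3, 0.841 for H3K9ac and 0.837 for H3K27ac. The ratio was lower for H3K36me2 (0.646) and ATAC-seq (0.602), and lowest for H3K27me3 (0.395), so the edges and presence of intervals were less stable in those lists. The lists hold positions alone, with no score or read count, and the depth behind an interval is unknown.

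Nearly all of the factors had H3K4me3 at the start of the gene. An interval lay within 2 kb of a RefSeq start, or of a gene end where no start was listed, in both replicates for 9 of the 10 genes. The share was 45.8% over all protein-coding genes. Ets1 had none at either end of its span, and its widest H3K4me3 intervals lay inside the gene. RefSeq starts were listed for 8 of the 10 genes, while for Tox and Ets1 both ends of the gene were taken. A start of Ets1 inside its span would therefore have been missed, and Ets1 is not shown to lack H3K4me3 at its start.

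The H3K4me3 intervals were wide, but to very different degrees. The widest interval of a gene spanned 14.1 and 12.8 kb in replicates 1 and 2 at Tcf7, and 13.5 and 13.5 kb at Ikzf1, which the replicates do not put in an order. It spanned 9.21 and 9.06 kb at Gata3, 7.79 and 7.85 kb at Bcl11b and 7.43 and 7.07 kb at Tox. These 5 genes passed a width of 4 kb in both replicates, as did 2.18% of all protein-coding genes and 4.43% of the 9900 genes with H3K4me3 at the start. The other 5 genes followed after a gap and lay close together. Lef1 reached 3.90 and 3.76 kb, just below the limit, and the remaining 4 genes lay between 2.68 and 3.43 kb. Runx1 (2.68 and 3.43 kb) could not be placed among Runx3 (3.09 and 3.08 kb), Ets1 (3.04 and 3.01 kb) and Tcf12 (3.13 and 3.09 kb), since its 2 values enclosed theirs. Of the other 3 genes, Ets1 lay slightly below Runx3 and Tcf12 in both replicates, and the values of Runx3 and Tcf12 met at 3.09 kb. The median over the 10 genes was 5538 ± 179 bp (SD, n = 2), against 579.5 bp over all protein-coding genes and 1982.5 bp over the genes with H3K4me3 at the start.

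**Figure D1:**
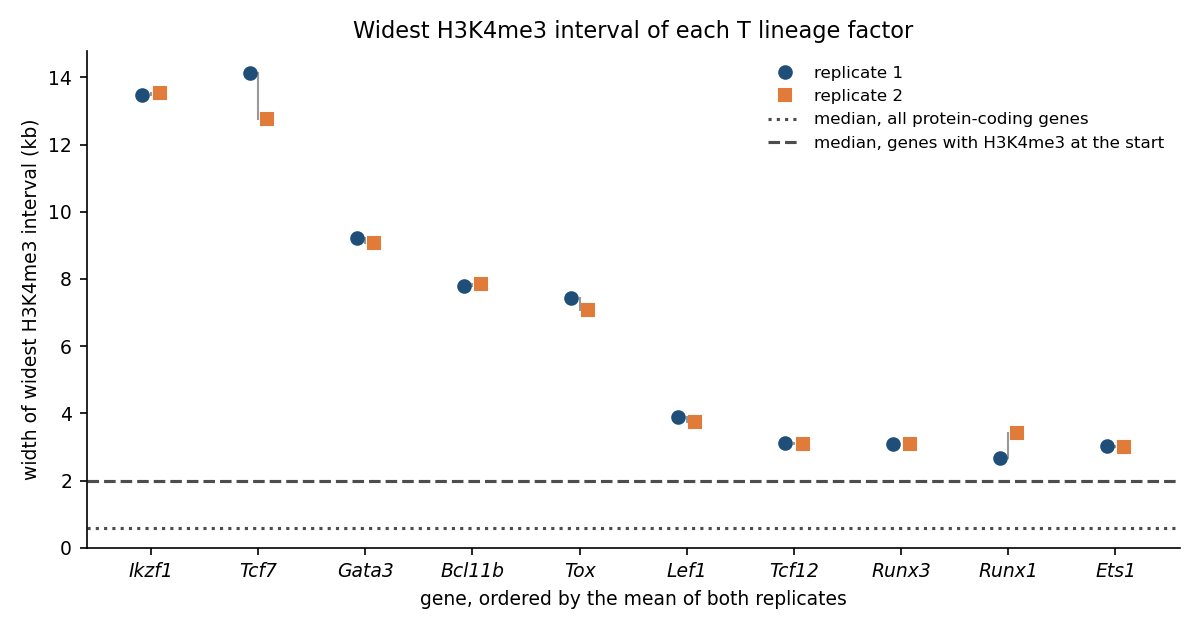
Width in kb of the widest H3K4me3 interval in the span of each gene or within 2 kb of it, in replicate 1 (circles) and replicate 2 (squares). Dotted and dashed lines are the medians over all protein-coding genes (579.5 bp) and over those with H3K4me3 at the start (1982.5 bp). Ikzf1, Tcf7, Gata3, Bcl11b and Tox sit above 7 kb in both replicates and the other 5 genes below 4 kb.

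Tcf7 and Ikzf1 stood at the top of the whole genome by this measure. At Tcf7, whose product TCF-1 binds DNA through an HMG box, the interval at chr11:52272867-52286980 was the widest of 18475 in replicate 1. That at chr11:52274172-52286924 was rank 2 of 18059 in replicate 2, where a piece of 1.05 kb was called apart at its gene-body end. At Ikzf1, a zinc finger factor that recruits chromatin remodelers, the interval at chr11:11684315-11697859 was the widest in replicate 2 and ranked 3 in replicate 1. It held both listed starts of the gene, 11685925 and 11690177, and an ATAC-seq site covered each of them in both replicates. H3K9ac followed the same outline, with an interval of 13.4 and 13.7 kb at Ikzf1 that ranked 1 of 20390 and 1 of 20392, and an interval of 9.47 and 9.49 kb at Tcf7 that ranked 6 in both lists.

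Around these starts, both genes had a series of smaller elements. Upstream of Tcf7, H3K4me3, H3K27ac and an ATAC-seq site met in both replicates at -16.1, -26.6, -31.5 and -35.4 kb from the nearest listed start, as measured to the closer edge of the H3K4me3 interval in replicate 1, with negative values upstream. The intervals there were 1.39, 1.98, 0.944 and 1.14 kb wide in replicate 1, and no start of another protein-coding gene lay within 2 kb of them. In Ikzf1, an element about 24 kb behind the second start had H3K4me3 of 2.21 and 1.97 kb, and further on, an open site at 11725213 to 11726486 of replicate 2 was, at 1.27 kb, rank 408 of 19255 ATAC-seq sites by width. Replicate 1 had 2 sites in its place, the wider of 0.673 kb. The window of Tcf7 also held the start of Skp1, and that of Ikzf1 the start of Fignl1, so the intervals there belong to neighbours as well.

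**Figure D2:**
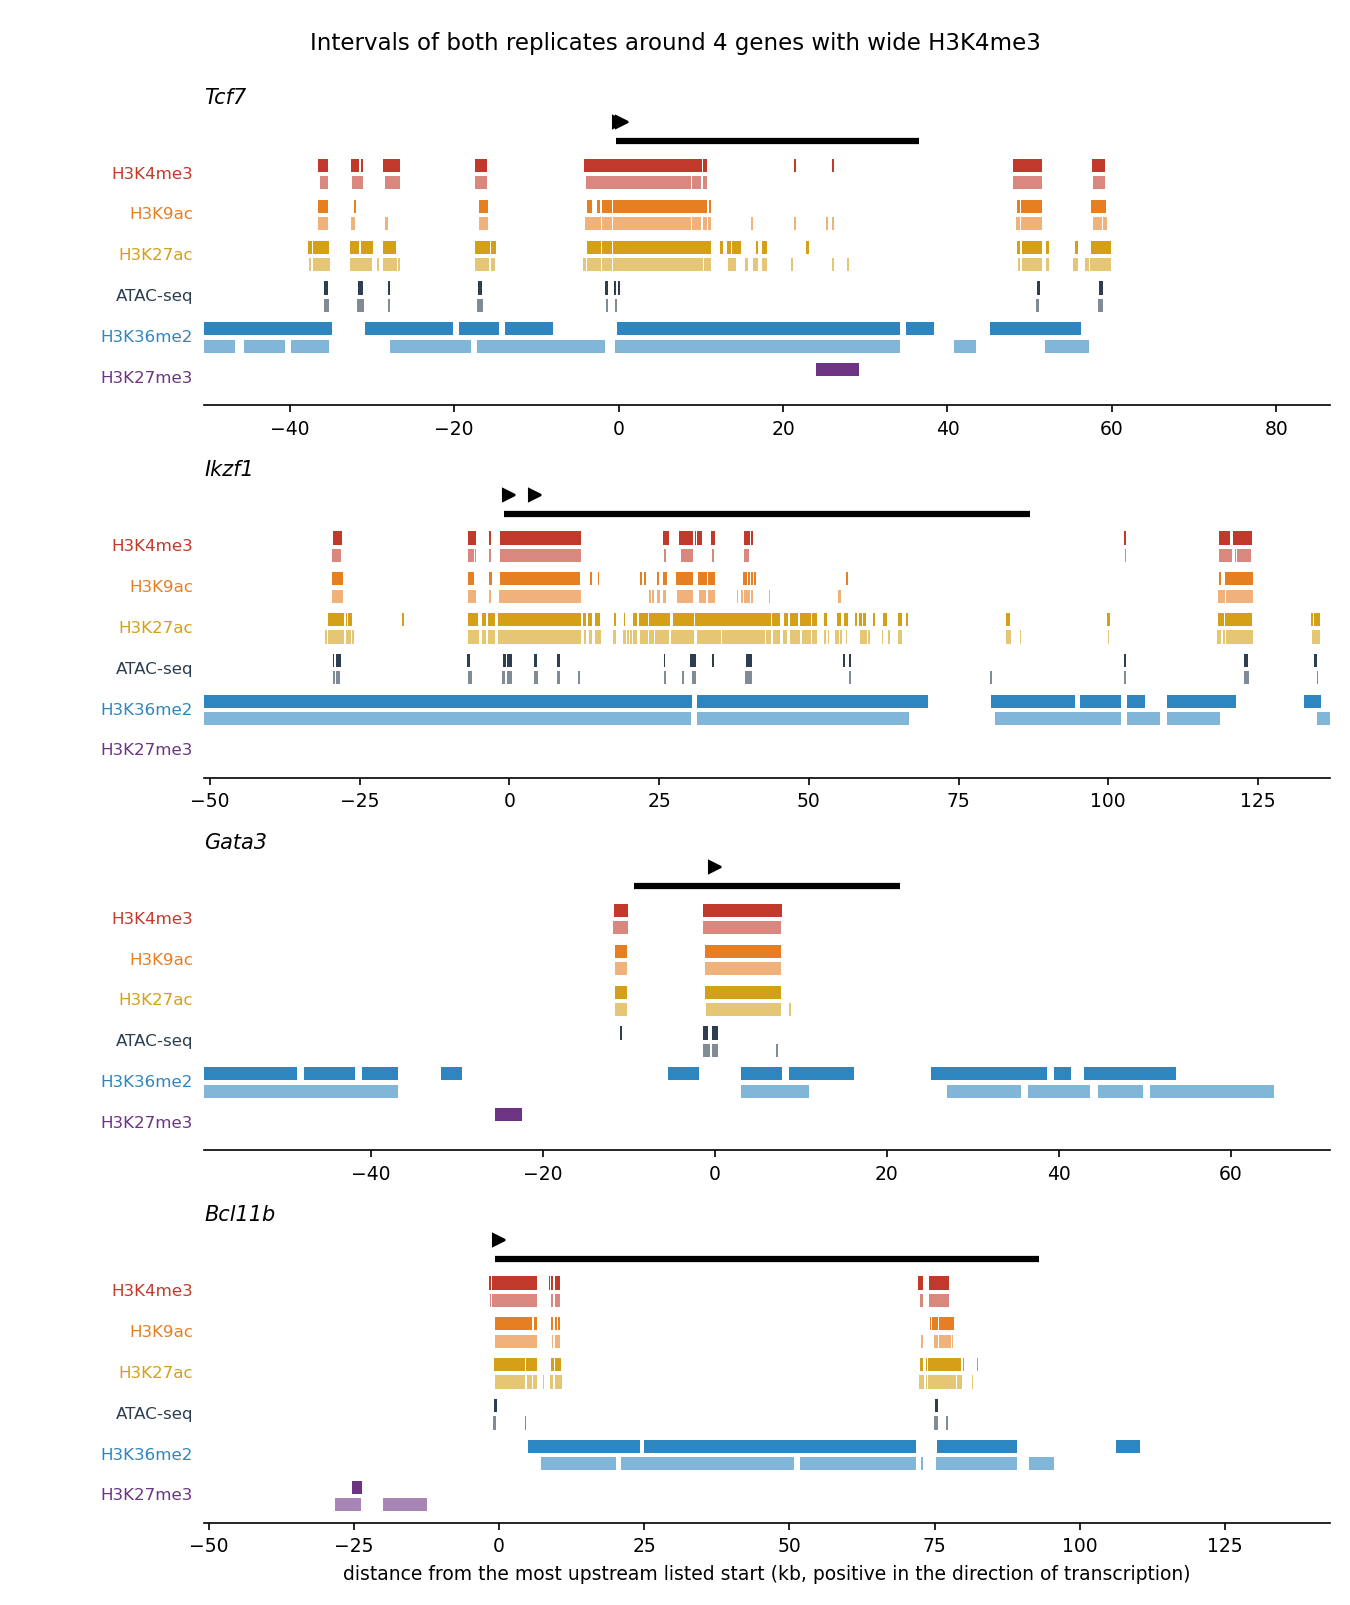
Intervals in the windows of Tcf7, Ikzf1, Gata3 and Bcl11b, against the distance in kb from the most upstream listed start. For each assay the upper row is replicate 1 and the paler lower row replicate 2, black bars are gene spans, arrowheads are listed starts, and intervals under 0.25 kb are drawn 0.25 kb wide. A block of H3K4me3, H3K9ac and H3K27ac covers each start, with further blocks upstream of Tcf7 and within Ikzf1 and Bcl11b.

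At Gata3, a zinc finger factor needed for T cell commitment and for T helper 2 cells, the block at chr2:9870767-9879976 ran from just before the start into the gene and ranked 13 and 12 by width. A smaller H3K4me3 interval of 1.65 and 1.72 kb lay at -10.1 kb, upstream of the only listed start. It lay within 2 kb of the outer end of the RefSeq gene span, at 9887953. At Bcl11b, a zinc finger repressor required for commitment, the start carried 7.79 and 7.85 kb of H3K4me3 and a further block lay deep in the gene, 74.0 kb from the start in both replicates. That inner block had H3K4me3 of 3.47 and 3.41 kb, H3K27ac of 5.67 and 4.79 kb and an ATAC-seq site in both replicates, and its H3K27ac interval was as wide as that at the start (5.19 and 5.21 kb) within the difference between replicates. Tox, an HMG box factor of developing and of exhausted T cells, likewise had an inner element, with an ATAC-seq site of 1.07 and 1.24 kb at chr4:6901367-6902439 in replicate 1 that ranked 615 and 486 by width. The H3K4me3 block of Tox covered the end of the gene at 6991557, and the other end had no H3K4me3.

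H3K27ac was then joined into clusters, as is done to find super-enhancers, by linking intervals no more than 12.5 kb apart. The longest cluster touching a gene measured 96.8 and 72.5 kb at Ikzf1, 60.9 and 65.7 kb at Tcf7, and 25.7 and 25.6 kb at Tox. These 3 genes passed 20 kb in both replicates, where 5.17% of all protein-coding genes and 10.1% of the genes with H3K4me3 at the start did. Gata3 straddled that limit, with 19.3 kb in replicate 1 and 20.5 kb in replicate 2. Below it came Ets1 (17.7 and 17.6 kb), Tcf12 (16.2 and 15.8 kb), Bcl11b (11.5 and 11.5 kb), Lef1 (7.46 and 12.3 kb), Runx1 (5.14 and 5.17 kb) and Runx3 (3.39 and 3.42 kb). In this order only Bcl11b and Lef1 overlapped between replicates, and the other neighbours did not. The order holds for joined length alone, which includes the gaps between intervals. By base pairs inside the intervals of a single cluster, Ets1 (12013 and 12517 bp) stood above Gata3 (10130 and 10291 bp) and Tox (10084 and 10076 bp). Lef1 was then the lowest, with 1747 and 2212 bp, below Runx1 (2587 and 3030 bp) and Runx3 (3109 and 3161 bp). The median was 16801 ± 167 bp (SD, n = 2), against 249.5 bp over all protein-coding genes and 2354.5 bp over the genes with H3K4me3 at the start.

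The Ikzf1 cluster was rank 1 of 13028 in replicate 1 and rank 4 of 13098 in replicate 2. In replicate 1 it joined 41 H3K27ac intervals and took in a group upstream of the gene, which stayed a cluster of its own in replicate 2, where 40 intervals were joined. The Tcf7 cluster ranked 8 and 9 with 18 and 21 intervals, and reached from inside the gene to the last of the upstream elements. By contrast, Runx1 had 6 separate clusters of at most 5.17 kb along its span in both replicates. The genes differ in length, with a median span of 104 kb over the 10 genes and 17.3 kb over all protein-coding genes, and a longer span can be touched by more clusters. The part of gene length in these medians was not tested. Within the windows, intervals of H3K27ac covered 63.3 and 63.9 kb at Ikzf1, which 0 of the other protein-coding genes exceeded on average in a window drawn the same way. These base pairs are not scaled to the length of the window, which grows with the gene.

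**Figure D3:**
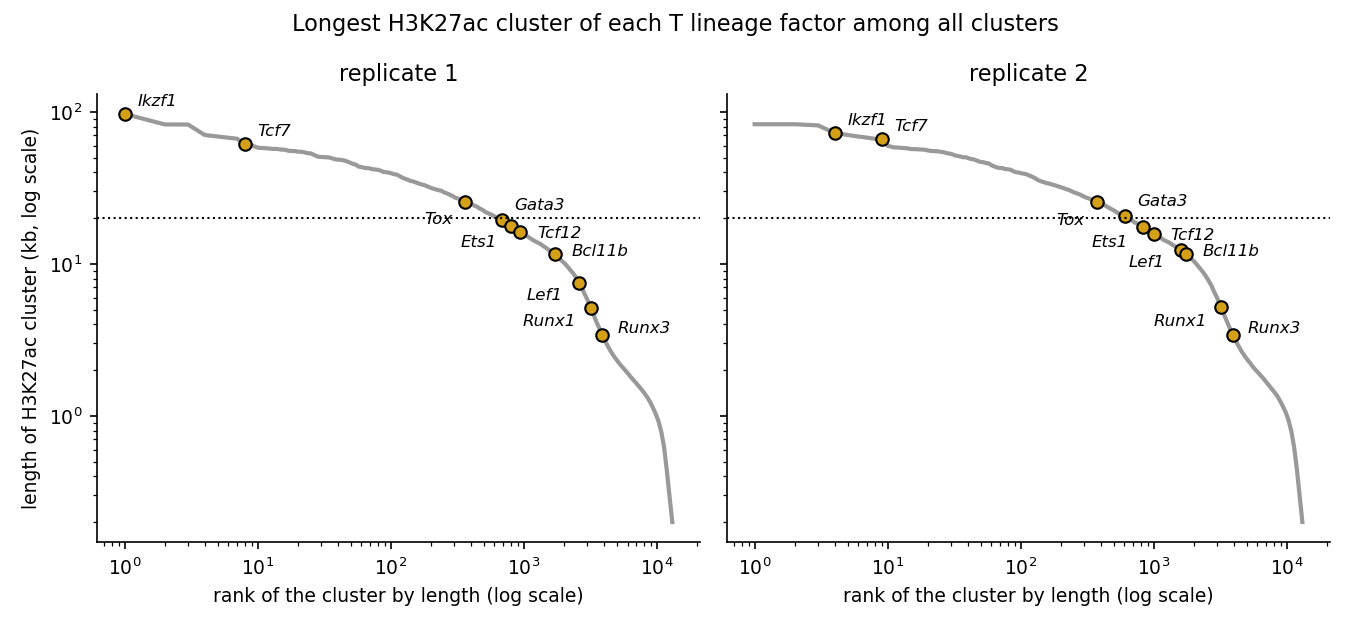
Length in kb of the longest H3K27ac cluster at each gene (circles) on the curve of all clusters ranked by length, for replicate 1 (left, 13028 clusters) and replicate 2 (right, 13098 clusters), with both axes logarithmic. The dotted line marks 20 kb. Ikzf1 and Tcf7 lie among the first 9 clusters in both replicates, and Runx1 and Runx3 lie at rank 3188 or further down.

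Lef1, which encodes LEF-1, the close relative of TCF-1, was the only factor of the 10 with marks of both kinds at its start. An H3K27me3 interval at chr3:131106401-131111799 in replicate 1 and at chr3:131106201-131112599 in replicate 2 covered the first listed start and shared 2333 and 3222 bp with the H3K4me3 intervals of the same replicate. Such contact of H3K27me3 with H3K4me3 at the start in both replicates was found for 1 of the 10 genes, for 0.213% of all protein-coding genes (46 genes) and for 0.465% of those with H3K4me3 at the start. The lists cannot tell whether both marks sit on the same chromosome copy or in different cells. The 250 bases before the first listed start (RefSeq, GRCm38.p6, plus strand) are shown because all of them lay within both marks in both replicates and none of them in an ATAC-seq site.
Lef1, chr3:131110047-131110296, plus strand: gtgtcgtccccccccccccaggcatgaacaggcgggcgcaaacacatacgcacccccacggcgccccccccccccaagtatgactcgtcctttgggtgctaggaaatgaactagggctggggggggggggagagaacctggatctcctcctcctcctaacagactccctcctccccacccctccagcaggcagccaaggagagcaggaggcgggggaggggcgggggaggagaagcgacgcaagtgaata
This stretch holds 66.4% G and C and 11 CG steps, and none of the factor motifs searched below, which would stand in capitals. The nearest open site in both replicates began further into the gene, at 131112023 and 131112099.

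H3K27me3 at Lef1 lay upstream of the gene and ended shortly behind the first start. Of the 50 kb upstream, 47.4 and 67.8% lay in H3K27me3, in 5 intervals per replicate, and 0% lay in H3K36me2. H3K36me2 began 3.60 and 5.60 kb behind the end of the H3K27me3 interval over the start and covered 51.5 and 43.1% of the gene span. The H3K4me3 interval was the sixth by mean width among the factors, but 38.3 and 42.1% of it lay in H3K27ac, against a median of 90.8% over the 10 genes and 82.1% over the genes with H3K4me3 at the start.

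Among the other factors, H3K27me3 in the gene span was found in both replicates only at Runx3. With Lef1 this makes 2 of 10 genes, where the share was 16.2% over all protein-coding genes and 2.78% over those with H3K4me3 at the start. The Runx3 interval spanned 4999 bp at chr4:135143201-135148199 in replicate 1 and 10999 bp at chr4:135133201-135144199 in replicate 2, with 999 bp in common, so its position differed between replicates. It lay between the starts of the gene and touched no interval of the 3 narrow marks, of H3K36me2 or of ATAC-seq. A Tcf7 interval of 5.20 kb was called in replicate 1 alone and lay wholly within H3K36me2. Outside the span, windows of Bcl11b, Runx1 and Tcf12 had H3K27me3 in both replicates and that of Gata3 in replicate 1, while Tox, Ets1 and Ikzf1 had none in either list.

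Runx1 and Runx3 each start from a distal and a proximal promoter that make proteins with different N-termini, and both starts of both genes were marked. At the distal start of Runx1, H3K4me3 was 2.68 and 3.43 kb wide, and at the proximal start, within the gene, 2.32 and 2.43 kb. At Runx3 the distal start had 1.13 and 1.21 kb and the proximal start 3.09 and 3.08 kb. An ATAC-seq site covered each of the 4 start positions in both replicates, and H3K9ac and H3K27ac did so as well. The proximal H3K4me3 interval of Runx3 was thus the wider of the pair in both replicates, whereas in Runx1 the distal one was.

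The 250 bases before these starts are given to show what lies under the marks. Capitals mark the 6 letters of any motif searched for a member family, on either strand.
Runx1 distal, chr16:92826075-92826324, minus strand: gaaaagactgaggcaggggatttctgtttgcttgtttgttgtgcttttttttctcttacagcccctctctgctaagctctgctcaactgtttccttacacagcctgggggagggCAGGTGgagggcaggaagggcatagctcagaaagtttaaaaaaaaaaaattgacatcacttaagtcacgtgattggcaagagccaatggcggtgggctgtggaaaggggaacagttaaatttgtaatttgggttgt
Runx1 proximal, chr16:92697330-92697579, minus strand: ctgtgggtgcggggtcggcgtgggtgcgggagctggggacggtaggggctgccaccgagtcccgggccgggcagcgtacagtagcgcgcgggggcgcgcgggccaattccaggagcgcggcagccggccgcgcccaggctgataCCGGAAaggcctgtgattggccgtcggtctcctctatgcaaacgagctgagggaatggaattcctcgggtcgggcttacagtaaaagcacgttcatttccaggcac
Runx3 distal, chr4:135120395-135120644, plus strand: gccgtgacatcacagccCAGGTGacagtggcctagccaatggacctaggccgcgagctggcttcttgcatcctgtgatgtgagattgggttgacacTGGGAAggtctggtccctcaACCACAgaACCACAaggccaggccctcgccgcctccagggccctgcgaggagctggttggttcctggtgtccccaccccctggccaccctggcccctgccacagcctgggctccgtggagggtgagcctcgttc
Runx3 proximal, chr4:135152295-135152544, plus strand: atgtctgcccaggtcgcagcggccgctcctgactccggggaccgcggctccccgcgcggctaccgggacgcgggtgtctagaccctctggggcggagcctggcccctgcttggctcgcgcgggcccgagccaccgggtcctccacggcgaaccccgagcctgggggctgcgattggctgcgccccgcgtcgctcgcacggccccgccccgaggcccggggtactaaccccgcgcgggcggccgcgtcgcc
In both genes the distal stretch was the poorer in CG steps, with 2 against 27 in Runx1 and 8 against 38 in Runx3, and 202 to 250 of the 250 bases lay in an ATAC-seq site. No motif overlaps another in these stretches. The capitals are CAGGTG, the E protein letters, in Runx1 distal and Runx3 distal, CCGGAA, the ETS letters, in Runx1 proximal, and in Runx3 distal also TGGGAA, the Ikaros letters, and the RUNX letters ACCACA at 134 and 126 bases before the start.

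Tcf12, which encodes the E protein HEB, had a marked start inside the gene as well. At the outer starts, 72111201 and 72111819, H3K4me3 was 3.13 and 3.09 kb wide, and at the inner start, 71896096, from which a shorter form is read, it was 2.30 and 2.30 kb wide. ATAC-seq and H3K27ac covered the inner start in both replicates. H3K9ac did not cover it in either, and the widest H3K9ac interval within 2 kb had 0.261 and 0.230 kb, against 3.00 and 2.79 kb at the outer starts. The inner stretch is shown because it differs in base composition from the Runx and Lef1 ones.
Tcf12 inner, chr9:71896097-71896346, minus strand: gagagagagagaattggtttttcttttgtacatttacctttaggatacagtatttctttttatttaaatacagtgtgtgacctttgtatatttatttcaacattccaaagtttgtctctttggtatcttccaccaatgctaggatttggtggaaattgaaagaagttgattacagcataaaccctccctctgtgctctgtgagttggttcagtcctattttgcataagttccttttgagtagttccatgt
It held 34.8% G and C and 0 CG steps, where the median over 21045 listed starts of protein-coding genes was 55.6% and 10 steps.

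**Figure D4:**
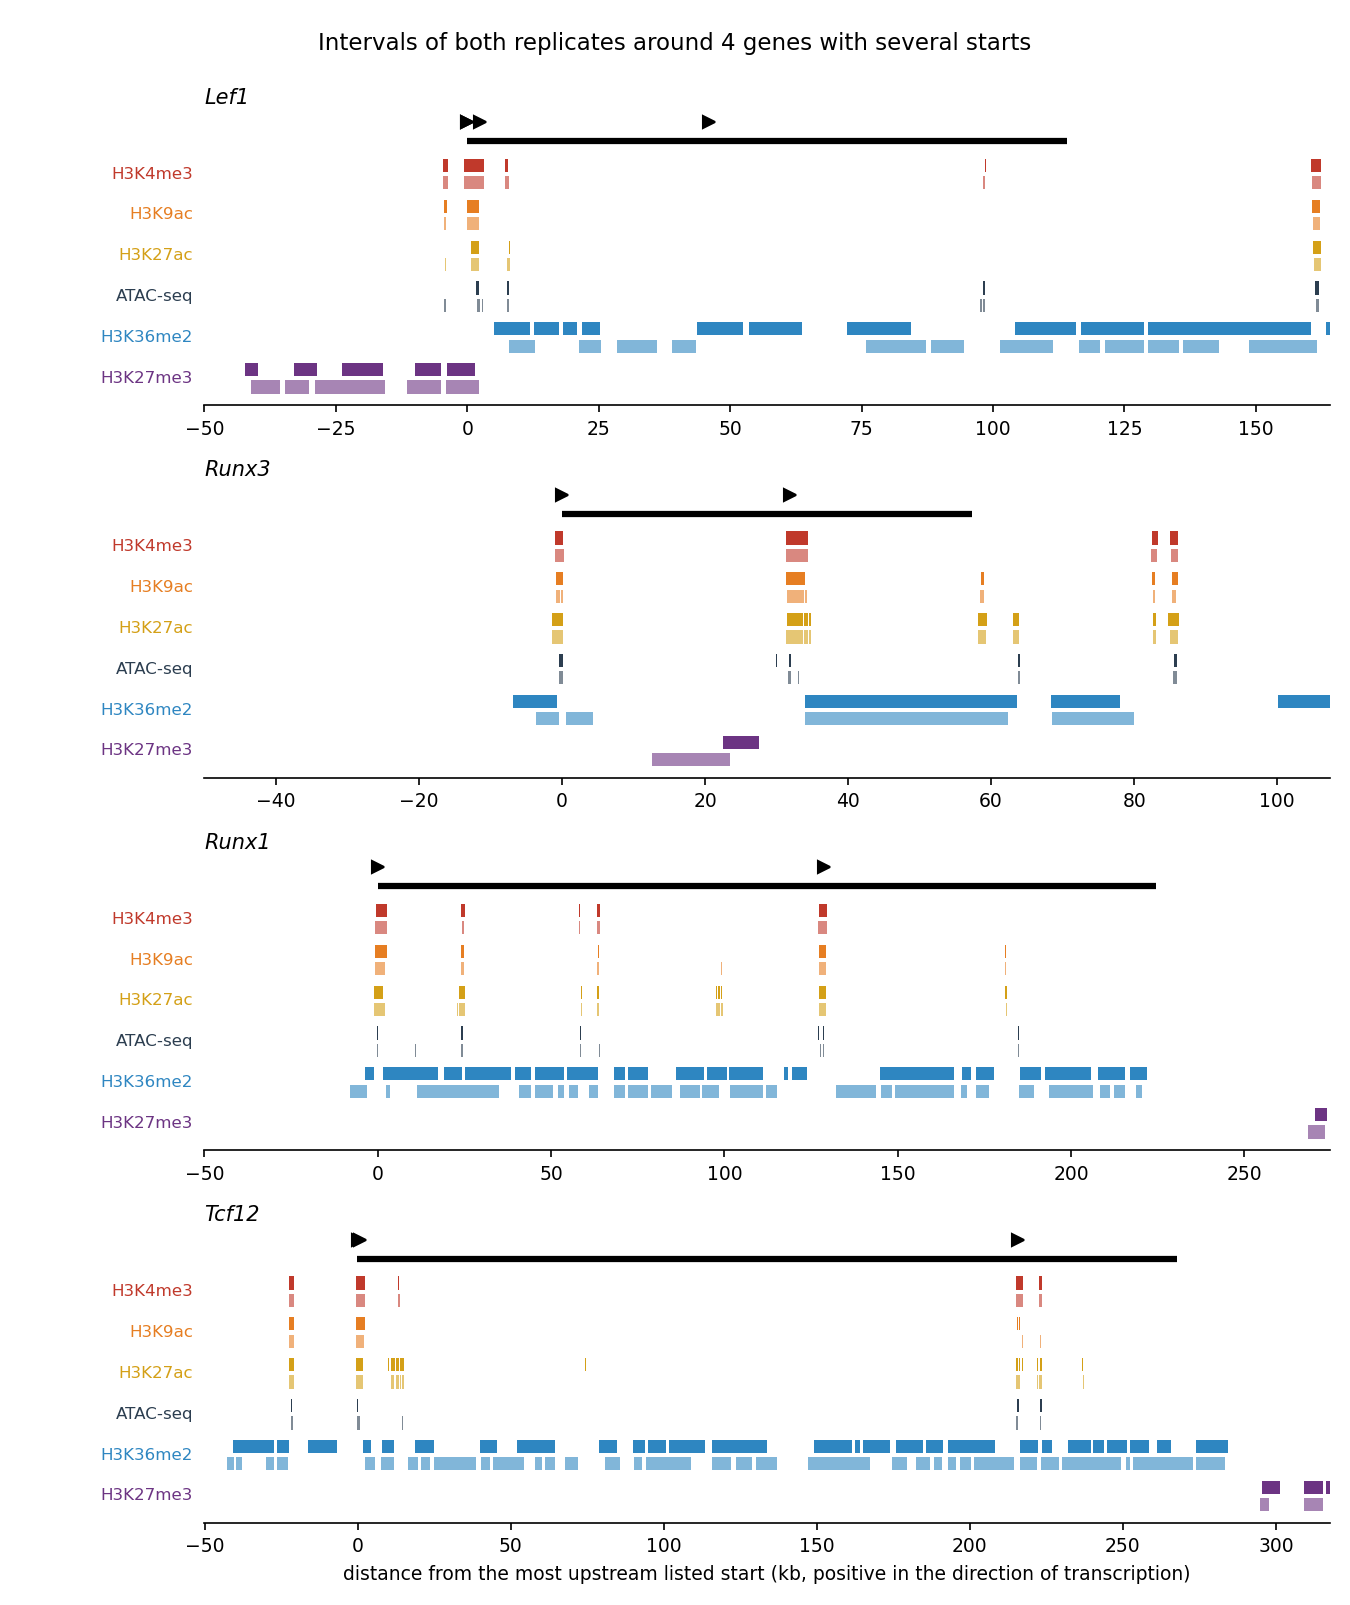
Intervals in the windows of Lef1, Runx3, Runx1 and Tcf12, drawn as in the map of Tcf7, Ikzf1, Gata3 and Bcl11b, against the distance in kb from the most upstream listed start. H3K27me3 lies in 5 separate intervals upstream of Lef1, the last of them over its start, and lies between the 2 starts of Runx3. In Runx1, Runx3 and Tcf12 the inner start has a block of H3K4me3 of its own, and the last of the 4 starts of Lef1 has none.

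Ets1 encodes a winged helix-turn-helix factor. Neither end of its RefSeq span had H3K4me3 within 2 kb, and its widest intervals lay in the interior, where 3 H3K4me3 intervals of 3.04, 1.89 and 2.05 kb in replicate 1 (3.01, 1.85 and 1.99 kb in replicate 2) followed each other with short gaps from 32695291 to 32702635 on chromosome 9. An ATAC-seq site of 0.662 and 0.705 kb lay in the first of them. A group of smaller intervals lay outside the span on the side of lower positions, with H3K4me3 of 0.463, 0.638 and 0.402 kb in replicate 1 and of 0.533, 0.543 and 0.619 kb in replicate 2, at -43.8, -27.0 and -22.8 kb from that end of the gene in replicate 1. H3K27ac touched each of these, and the outermost and innermost had an ATAC-seq site in both replicates. H3K27ac was spread over 31 and 29 intervals in the window, covering 27.3 and 29.9 kb, which only 26 protein-coding genes exceeded on average. These base pairs are not scaled to the window, which grows with the gene and was 221580 bp long here. The part of gene length in this rank was not tested.

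Open sites were counted over the span and 50 kb on either side. The 10 windows held 64 and 72 ATAC-seq sites. Ikzf1 had 18 and 17 of them, or 9.58 and 9.04 per 100 kb, and Tcf7 had 9 and 8, or 6.58 and 5.85 per 100 kb. These 2 genes reached 5 sites per 100 kb in both replicates, as did 6.62% of all protein-coding genes and 11.4% of the genes with H3K4me3 at the start. The other 8 genes ranged from 1.03 (Bcl11b, replicate 1) to 3.27 (Lef1, replicate 2). The median was 2.44 ± 0.53 sites per 100 kb (SD, n = 2), near the 2.45 of the genes with H3K4me3 at the start and above the 1.29 of all protein-coding genes. By density, Ikzf1 and Tcf7 thus stood apart from the other 8 genes in both replicates. Not scaled to the window, the median was 6.25 ± 1.06 sites (SD, n = 2), against 3 over the genes with H3K4me3 at the start and 2 over all protein-coding genes. The window grows with the gene, and the part of gene length was not tested.

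Most of these sites lay in the active marks, as most sites did elsewhere. H3K27ac touched 85.9 and 81.9% of the sites in the windows, against 85.3 and 83.6% of all sites, and H3K4me3 touched 85.9 and 81.9%, against 81.5 and 78.0%. H3K36me2 touched 45.3 and 44.4% of the sites in the windows and 28.6 and 26.0% of all sites. Of the 29 and 32 sites in H3K36me2, 16 and 13 were those of Ikzf1, so most of the sites in replicate 1 came from 1 gene. H3K27me3 touched 0 and 1 of the sites, the latter at Lef1, and 3 and 4 sites had no mark.

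H3K36me2 covered the factors broadly. It took up 97.3 and 93.8% of the span of Tcf7, 87.0 and 82.5% of Ikzf1 and 85.1 and 84.3% of Bcl11b. Gata3 had the lowest mean, with 51.8% in replicate 1 and 25.9% in replicate 2, followed by Runx3 with 40.8 and 47.4% and Lef1. In 7 of the 10 genes the mark covered at least 50% of the span in both replicates, where 24.7% of all protein-coding genes and 47% of the genes with H3K4me3 at the start did. The median was 69.3 ± 2.2% (SD, n = 2), against 56.9% over the genes with H3K4me3 at the start, and 0% over all protein-coding genes.

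At Ikzf1 and Tcf7, the genes with the widest H3K4me3 blocks, H3K36me2 also ran through most of the block. The widest H3K4me3 interval of Ikzf1 lay within H3K36me2 over 100% of its length in both replicates, and that of Tcf7 over 73.2 and 90.6%. At Gata3 the share was 52.1 and 52.4%. The shares were 0 and 0% at Lef1 and Ets1, and the median over all genes with H3K4me3 at the start was 0%. At Tox the replicates disagreed, with 78.4 and 2.52%. Bcl11b, with a wide block, had only 19.4 and 0%. Among the narrower blocks, Runx1 had 22.2 and 14.8%, Runx3 15.6 and 14.8% and Tcf12 27.2 and 0%. The H3K36me2 interval over the start of Ikzf1 was 84.4 and 83.0 kb long and ranked 26 and 27 of 38897 and 40826 by length.

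**Figure D5:**
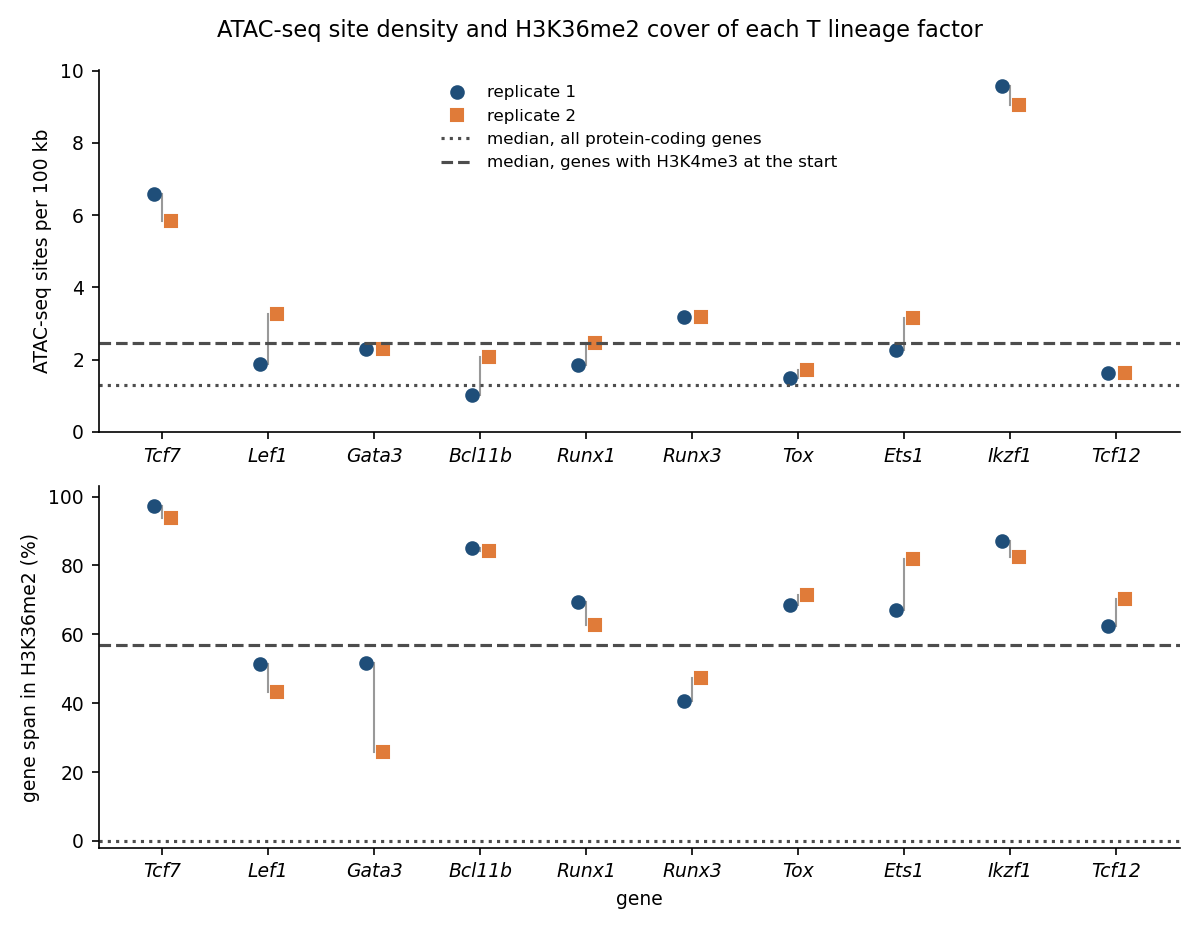
ATAC-seq sites per 100 kb of the span plus 50 kb on either side (top) and percent of the gene span in H3K36me2 (bottom) for each gene, in replicate 1 (circles) and replicate 2 (squares). Dotted and dashed lines are the medians over all protein-coding genes and over those with H3K4me3 at the start. Ikzf1 and Tcf7 stand above 5 sites per 100 kb, and Gata3 has the widest spread between replicates in H3K36me2.

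Paralogs of the factors share their DNA-binding domains, and many of them are used in other tissues. Of 20 paralogs, 6 had H3K4me3 at the start in both replicates, 2 passed 4 kb and 3 had an H3K27ac cluster of at least 20 kb. The shares over all protein-coding genes were 45.8, 2.18 and 5.17%. The paralogs with the longest clusters were Ikzf3 (41559 and 42601 bp), which encodes Aiolos, the ETS factor Fli1 (34710 and 34483 bp), Runx2 (34749 and 19892 bp) and Ikzf2 (21525 and 21614 bp), which encodes Helios, and Ikzf2 also had H3K4me3 of 11109 and 11167 bp. Runx2 was not among the 6 with H3K4me3 at the start, but had intervals of 3905 and 3812 bp in its span or within 2 kb of it. A start that was not listed would have been missed. H3K27me3 lay in the span of 6 of the 20 paralogs in both replicates, against 16.2% of all protein-coding genes. The most base pairs were at Tcf7l2 (61989 and 85250 bp), Tcf4 (72951 and 72557 bp), Bcl11a (54192 and 79954 bp) and Gata4 (35793 and 33394 bp). The median width of the widest H3K4me3 interval was 781 bp over the paralogs.

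Other genes of early T cell development were mixed. Of 16 such genes, 10 had H3K4me3 at the start, 4 passed 4 kb (Gfi1, Themis and, named after their values were seen, Myb and Zbtb7b) and 2 had a cluster of at least 20 kb, Gfi1 with 43077 and 43119 bp and Themis with 28262 and 27634 bp. Over all protein-coding genes, 45.8% had H3K4me3 at the start, 2.18% passed 4 kb and 5.17% had such a cluster. Rag1 and Rag2, the genes of the recombinase, had no H3K4me3 and had H3K27me3 in the span in both replicates. Hes1, a Notch target, was the gene of this list with H3K27me3 touching H3K4me3 at the start, as at Lef1. Of 10 regulators of other blood lineages, 6 had H3K4me3 at the start, 0 passed 4 kb and 1 (Irf8, 21543 and 21639 bp) had a cluster of at least 20 kb. The same shares, 45.8, 2.18 and 5.17% of all protein-coding genes, stand beside these counts. H3K27me3 lay in the span of 2 of these 10 genes in both replicates, against 16.2% of all protein-coding genes. They were the B cell factors Ebf1, with 246361 and 247764 bp, and Pax5, with 60393 and 85390 bp. Pou2af1 and, named after its values were seen, Spib went the other way, with H3K4me3 at the start and no H3K27me3 in the span.

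The 250 bases before the 17 listed starts of 8 of the factors were searched on both strands for the core letters bound by the families themselves. CTTTGA, the TCF/LEF letters, stood at 2 starts (1 of Lef1 and 1 of Bcl11b) and in 12.8% of 21045 listed starts. AGATAA, for GATA factors, stood at 0 of the 17 starts and in 8.84% of all. TGTGGT, for RUNX, and TGGGAA, for Ikaros, stood at 1 start, the distal one of Runx3, and in 12.2 and 21.1% of all. CCGGAA, for ETS factors, stood at 3 starts (Tcf7, Gata3 and Runx1), as did CAGCTG (Tcf7, Lef1 and Tcf12), against 15.1 and 12.2% of all, and CAGGTG stood at 2 (Runx1 and Runx3), against 17% of all. CAGCTG and CAGGTG are E protein letters, and CAGCTG reads the same on both strands. With 17 starts the counts are small, and a match of letters is a description and no evidence of binding.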

How the data were processed

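Members, gene lists, limits and alternatives were chosen with earlier results of these data known. The 12 interval lists of EL4 cells hold chromosome, start and end alone, with no score, count or depth, in the base pairs the authors deposited. Per the study's methods and the submitters' processing notes, reads were aligned with STAR 2.5 to GRCm38, duplicates were handled with Picard, and intervals were called per replicate with MACS2 (H3K4me3, H3K9ac, H3K27ac and ATAC-seq) or with Epic, which joins enriched bins (H3K36me2 and H3K27me3). An interval's width therefore depends on the caller and on depth, and the broad lists are in bins. Of 15 labelled samples, the input and the RNA-seq samples were not used here.

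Gene spans were taken from RefSeq, and starts from RefSeq promoters for 17274 of 21631 protein-coding genes. For the other genes both ends were taken. Replicates were read separately. H3K4me3 at a start meant an interval within 2 kb, and H3K27ac intervals no more than 12.5 kb apart formed a cluster. A call had to hold in both replicates. Medians are given for members and for all genes, and no significance test was run, since the series holds a single condition. All 10 factors are named, and of each other list at most 4 genes with the longest H3K27ac clusters and at most 4 with the most H3K27me3 in both replicates. Genes beyond this rule are named as such or make up a count of 5 or fewer. The interval functions were tested on simulated data. Calculations used Python 3.11.15, numpy 2.4.6, pandas 2.3.3 and matplotlib 3.10.9.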

Additional observations from a re-analysis of the deposited data

How the results depend on the processing

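The 9 genes with H3K4me3 at the start were the same in every alternative tried on them. The median widest H3K4me3 interval stayed within the limit set for medians, the SD of the 2 replicates (179 bp), in every alternative. For any median, leaving out a replicate could not pass that limit, so this alternative was no check. Nor could dropping intervals below 500 bp change the H3K4me3 median, since the widest interval of each member was longer. Leaving out either replicate gave medians of 5411.5 to 5664.5 bp for H3K4me3 width, 16683 to 16919 bp for the H3K27ac cluster, 2.06 to 2.81 ATAC-seq sites per 100 kb and 67.7 to 70.8% of the span in H3K36me2, and 2 to 3 genes with H3K27me3 in the span. The cluster median was 10450 bp with joining up to 5 kb, 18747 bp with joining up to 20 kb, 13271 bp with intervals of at least 500 bp and 9394 bp when only base pairs inside intervals were counted. The median of ATAC-seq sites per 100 kb was 3.16 with replicates merged, 1.67 for sites touched by both replicates, 0.726 for sites of at least 500 bp, 1.76 with 100 kb to each side and 1.31 without sites at protein-coding starts. The H3K36me2 median was 84.8% with replicates merged, 78.2% for intervals touched by both and 53.3% over the span plus 50 kb, where H3K27me3 was found at 5 genes. The cause of these shifts was not tested beyond the change of setting itself. The comparison with genes that have H3K4me3 at the start was chosen after seeing the data. With all 49554 genes of the table as background, 26.3% had H3K4me3 at the start and 3.40% a cluster of at least 20 kb. No paired analysis was possible because the series holds 1 condition and no result comes from a test. Depth is unknown, so an interval missing from a list is not shown to lack the mark.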

Other observations

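Flanks were read from the edge of each window, 50 kb from the gene span, out to 1 Mb from it. The longest H3K27ac clusters there lay far from several factors. Downstream of Gata3, in a flank with 0 other protein-coding genes, a cluster of 32.8 and 33.2 kb lay 261 kb from the gene in both replicates, longer than the cluster at Gata3 itself, and that flank held 4 and 7 ATAC-seq sites. Downstream of Bcl11b, in a flank with 1 protein-coding gene, a cluster of 43.0 and 42.5 kb lay 749 kb away, against 11.5 kb at the start of Bcl11b. No start of a protein-coding gene lay within 2 kb of either cluster. Which gene they belong to was not tested.

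Ikzf1, with the longest clusters of the 10 genes, had 0 H3K27ac clusters and 0 ATAC-seq sites in the downstream flank in both replicates, all of its downstream sites lying within the 50 kb of the window, and a cluster of 18.8 and 18.7 kb upstream at 111 kb. On the side of Ets1 with lower positions, a cluster of 34.7 and 34.5 kb lay 114 kb from the gene, and this is the cluster counted for Fli1.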
